A study of Mus musculus with 18 samples.

Results

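The 10 genes of the mitochondrial death pathway described here were named in a fixed list, which was chosen with earlier results of these data known. They are the prosurvival genes Bcl2, Bcl2l1 and Mcl1, the BH3-only genes Bcl2l11, Bbc3, Pmaip1 and Bid, the pore-forming effectors Bax and Bak1, and Apaf1. The 10 genes were found once each among the 55487 gene identifiers of the deposited count table, and all 10 were among the 14864 genes that passed the filter on low counts. The study compared natural killer (NK) cells, lymphocytes that kill infected or transformed cells, with and without ATP citrate lyase. ATP citrate lyase, the product of Acly, makes acetyl-CoA from citrate outside the mitochondrion, for lipid synthesis and for protein acetylation.

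The wild-type mice carried Rosa YFP/YFP and Ncr1 CRE-ERT2, and the knock-out mice carried Acly fl/fl in addition. Both genotypes therefore carried the same Cre transgene, driven by the NK-cell gene Ncr1, and both were fed tamoxifen for 48 hours. YFP-positive NK cells were sorted from the spleen 5 days after the diet was withdrawn, so every library came from cells in which the reporter had been switched on. The cells were used fresh or after 72 hours of priming with 100 ng/ml of the cytokine IL-15. Others were primed in the same way, washed and kept for 6 hours on a plate-bound stimulus for NKG2D (20 ug/ml), an activating receptor of NK cells. Each of the 6 groups had 3 libraries. The labels name no primed cells that were washed and kept for the same hours without the plate-bound stimulus, and they do not say whether IL-15 was present during those hours. Stimulation through NKG2D, the wash, any removal of IL-15 and the added hours in culture cannot be told apart. Below, "NKG2D response", "after NKG2D" and NKG2D as the agent of a change all mean the sum of them. The labels also name no cells cultured for 72 hours without IL-15. IL-15, the hours in culture and a change in which cells were present cannot be told apart there, and "priming" below means the sum of them. Ages and sexes of the mice, and whether the 3 libraries of a group came from separate mice, were not given in the sources used here. Any p-values therefore measure the spread between libraries.

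The libraries held 14772350 to 34367582 reads assigned to genes, the lowest in replicate 1 of the primed knock-out, which also had the fewest genes with a read (14695). Pairs of replicates differed by a chi-square per gene of 11.9 to 88.7, where sampling noise alone gives about 1, so no library was a repeat deposit. The highest of these values involved replicate 1 of the stimulated knock-out (78.9 and 88.7) and replicate 3 of the primed wild type (75.3 and 78.6), and results that change without 1 library are given with that value. Acly fell to 7.6% of the wild-type level in fresh cells, to 16.7% in primed cells and to 22.2% after NKG2D, with no overlap between genotypes. The 8 NK-cell markers (such as Ncr1, Klrb1c and Eomes) summed to 10060 to 12530 CPM (counts scaled to the library's total) in fresh, 6755 to 9114 CPM in primed and 4010 to 5912 CPM in stimulated libraries. The 6 markers of type 1 innate lymphoid cells summed to 47.7 to 207 CPM in fresh and 113 to 246 CPM in primed libraries, and to 247 to 416 CPM in stimulated wild-type and 340 to 384 CPM in stimulated knock-out libraries. B-cell markers summed to at most 6.00 CPM. The 8 T-cell markers summed to 38.1 to 89.0 CPM in fresh libraries, to 41.6 to 76.0 CPM in primed wild-type and 32.4 to 39.8 CPM in primed knock-out libraries, and to 41.7 to 66.9 CPM and 26.8 to 27.1 CPM in stimulated ones. The part of these markers in the results was not tested. The sum of 7 erythroid markers was 115 to 201 CPM in fresh wild-type libraries against 16.4 to 18.2 CPM in fresh knock-out libraries, and at most 1.54 CPM in every cultured library. Its part in the genotype comparison of fresh cells was not tested. The sum of 9 myeloid markers was 279 to 347 CPM in the stimulated knock-out and 168 to 186 CPM in the stimulated wild type. Most of it was Itgam and Cd68, while Lyz2, S100a8 and S100a9 were at 0 in all stimulated libraries. Its part in the results after NKG2D was not tested.

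Proteins of the BCL2 family decide whether the outer membrane of the mitochondrion stays closed. BCL2, BCL-XL (from Bcl2l1) and MCL1 hold it closed by binding BAX, BAK and the BH3-only proteins, whereas BH3-only proteins such as BIM (Bcl2l11), PUMA (Bbc3), NOXA (Pmaip1) and BID neutralise the prosurvival proteins or activate BAX and BAK. Once BAX or BAK opens the membrane, cytochrome c leaves and joins APAF1 in the apoptosome, which activates caspase-9. NK cells depend on IL-15 for survival, and MCL1 is required for NK cells to persist. Messenger RNA was measured here, not protein, cell death or cell number. In bulk libraries, fewer cells of a kind and less RNA per cell cannot be told apart.

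Promoter windows of 300 bases (250 before and 50 after the RefSeq start site, GRCm38.p6) were given for 9 of the 10 genes, as 14 windows. Pmaip1 had no entry. The 4 windows below belong to genes on which the results turn: Bcl2l11 and Bbc3, which rose after NKG2D, Bcl2, which fell most, and Bax, which was higher in the stimulated knock-out. Each is written from 5' to 3' along the gene, all in lower case except where a searched motif matched.
Bcl2l11, chr2:128125788-128126087, plus strand: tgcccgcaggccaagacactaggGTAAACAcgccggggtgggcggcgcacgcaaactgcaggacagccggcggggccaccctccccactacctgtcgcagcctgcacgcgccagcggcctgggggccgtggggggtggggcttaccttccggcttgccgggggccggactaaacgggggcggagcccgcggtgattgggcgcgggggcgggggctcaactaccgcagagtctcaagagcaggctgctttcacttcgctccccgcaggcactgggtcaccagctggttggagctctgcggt
Bbc3, chr7:16310011-16310310, plus strand: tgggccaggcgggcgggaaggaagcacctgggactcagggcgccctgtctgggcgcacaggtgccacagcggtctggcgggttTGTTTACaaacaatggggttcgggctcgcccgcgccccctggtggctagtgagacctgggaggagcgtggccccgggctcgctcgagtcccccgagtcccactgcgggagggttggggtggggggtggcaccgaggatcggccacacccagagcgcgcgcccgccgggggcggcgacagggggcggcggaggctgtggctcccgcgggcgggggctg
Bcl2, chr1:106714241-106714540, minus strand: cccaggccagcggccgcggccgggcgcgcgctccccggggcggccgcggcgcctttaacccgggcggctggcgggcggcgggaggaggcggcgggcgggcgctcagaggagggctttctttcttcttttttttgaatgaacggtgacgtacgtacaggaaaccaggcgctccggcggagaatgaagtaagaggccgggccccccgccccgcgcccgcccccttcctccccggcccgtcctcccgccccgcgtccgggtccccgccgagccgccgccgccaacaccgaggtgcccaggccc
Bax, chr7:45466849-45467148, minus strand: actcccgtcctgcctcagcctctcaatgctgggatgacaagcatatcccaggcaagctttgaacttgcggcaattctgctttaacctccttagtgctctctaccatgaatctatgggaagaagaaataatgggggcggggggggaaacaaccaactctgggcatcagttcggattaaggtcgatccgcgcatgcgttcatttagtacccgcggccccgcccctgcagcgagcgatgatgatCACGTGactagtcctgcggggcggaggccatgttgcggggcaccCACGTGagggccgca

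Capitals mark matches to 4 short motifs, searched on both strands without mismatch: the forkhead motif TGTTTAC, the E-box CACGTG, the STAT motif TTCNNNGAA and the AP-1 motif TGANTCA. The forkhead motif matched in the first of 2 Bcl2l11 windows, beginning at position -227 from the start site, and in the second of 3 Bbc3 windows, at -167. It matched in 3.65% of all 32851 promoter windows of the reference. The E-box matched in the Bax window at -9 and 36 and in the third Bbc3 window at -64, against 7.15% of all windows. The STAT motif (8.3% of all windows) and the AP-1 motif (7.81%) matched in none of the 14. A match describes letters in the window and is not evidence that a factor binds there.

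After NKG2D, the prosurvival genes Bcl2 and Bcl2l1 and the BH3-only gene Bid fell in both genotypes, while the BH3-only genes Bcl2l11 and Bbc3 rose. Mcl1 did not pass the test there in either genotype. Leaving out 1 library ended the Bbc3 call after NKG2D in 6 of 6 cases in wild type and 2 of 6 in knock-out. During IL-15 priming, Bcl2 and Bak1 rose while Bcl2l1, Mcl1 and Bbc3 fell in both genotypes. In the knock-out, leaving out 1 library ended the priming call of Bak1 in 4, of Bcl2l1 in 3 and of Bbc3 in 1 of 6 cases. The knock-out differed from the wild type in Pmaip1, which fell on priming in wild-type cells and had a log2 change of 0.02 in knock-out cells, and in Apaf1 and Bax, which were higher in the knock-out after NKG2D.

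**Figure D1:**
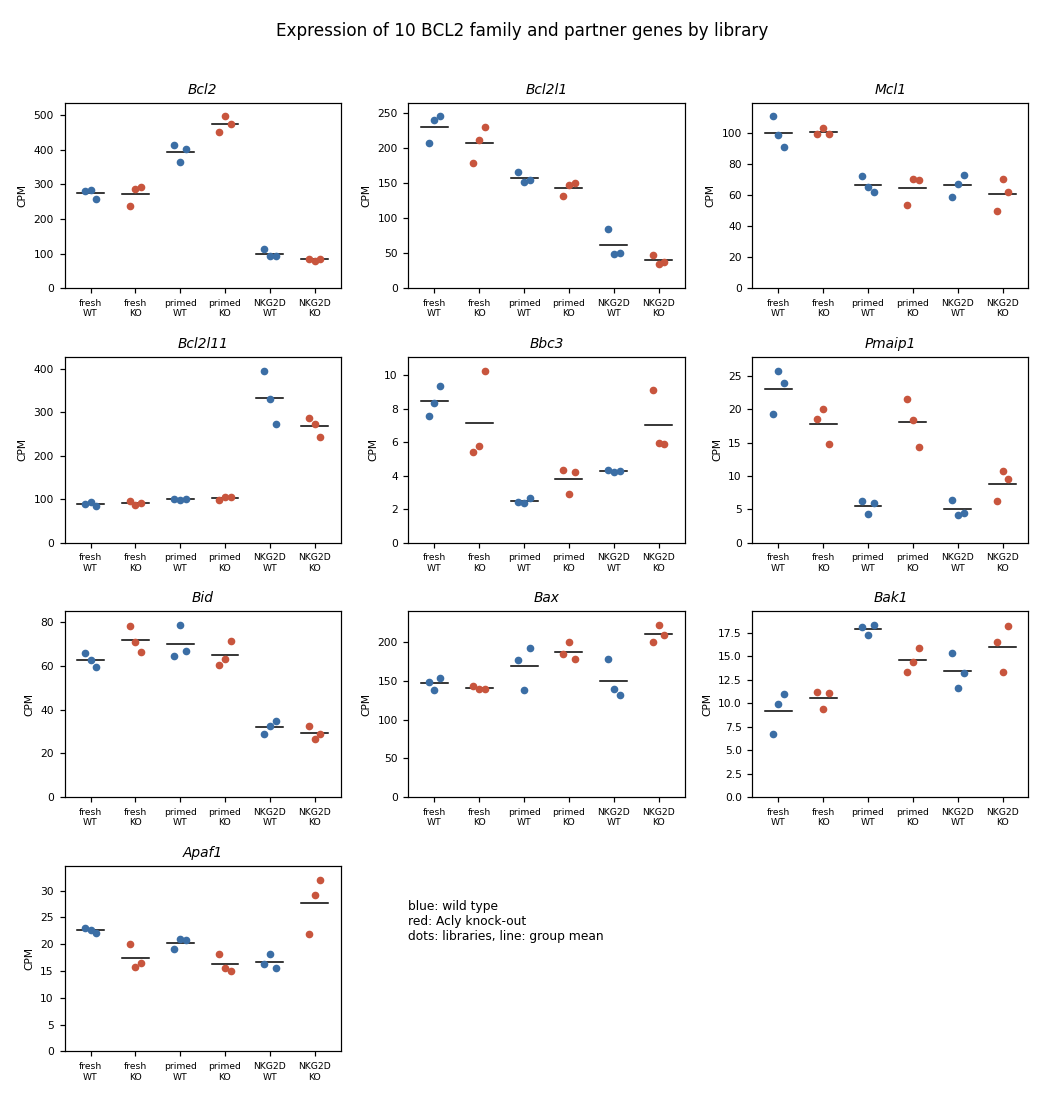
Expression of the 10 genes in each library. The vertical axis of each panel is CPM (TMM-scaled) from 0, dots are libraries (blue wild type, red knock-out), and lines are means of 3 libraries. Bcl2l11 lies between 85.7 and 106 CPM in fresh and primed libraries and between 244 and 396 CPM after NKG2D, while Bcl2 lies between 79.7 and 113 CPM after NKG2D and at 237.7 CPM or more in all other libraries.

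The counts of genes that passed the test were read against the share of all 14864 tested genes that passed. Tests were edgeR quasi-likelihood tests with Benjamini-Hochberg adjustment over all tested genes, and "rose", "fell", "higher" and "lower" below are used at an adjusted p under 0.05. In wild-type cells, priming changed 6 of the 10 genes, 2 up and 4 down. In the background, 53.7% of tested genes changed, 26.5% up and 27.2% down, so a count of 6 is near the background. In knock-out cells, priming changed 6 of the 10, 3 up and 3 down, against 48.7% of tested genes (23% up and 25.7% down).

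After NKG2D, 5 of the 10 genes changed in wild-type cells, 2 up and 3 down, where 19.9% of tested genes changed (9.2% up and 10.7% down). In knock-out cells 7 of the 10 changed, 3 up and 4 down, where 35.3% of tested genes changed (18.4% up and 16.9% down). The median log2 change of the tested genes was -0.01 in wild-type and 0.04 in knock-out cells.

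Between genotypes, none of the 10 genes passed the test in fresh cells, where 0.0673% of tested genes did (0.0135% higher and 0.0538% lower in the knock-out). At an unadjusted p under 0.05 the count was 1, Apaf1, where 1903 of the 14864 tested genes were under it. DESeq2 called 0 and limma voom with sample quality weights called 1, again Apaf1. The shares of all genes called by these 2 methods are not given here, so those counts are not read against a background. In primed cells 1 of the 10 was higher in the knock-out, where 15.5% of tested genes differed (7% higher and 8.52% lower). After NKG2D, 3 of the 10 were higher and 1 was lower, where 18.2% differed (8.75% higher and 9.47% lower). The priming response itself differed between genotypes for 1 of the 10, with 10.5% of all tested genes (4.08% with a larger and 6.41% with a smaller log2 change in the knock-out). The NKG2D response differed for 2 of the 10, with 3.55% of all tested genes (1.49% larger and 2.07% smaller). The knock-out and wild-type libraries did not overlap for 2 of the 10 genes in fresh, 6 in primed and 5 in stimulated cells. Of all 14864 tested genes, 4011, 4690 and 5167 did not overlap.

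**Figure D2:**
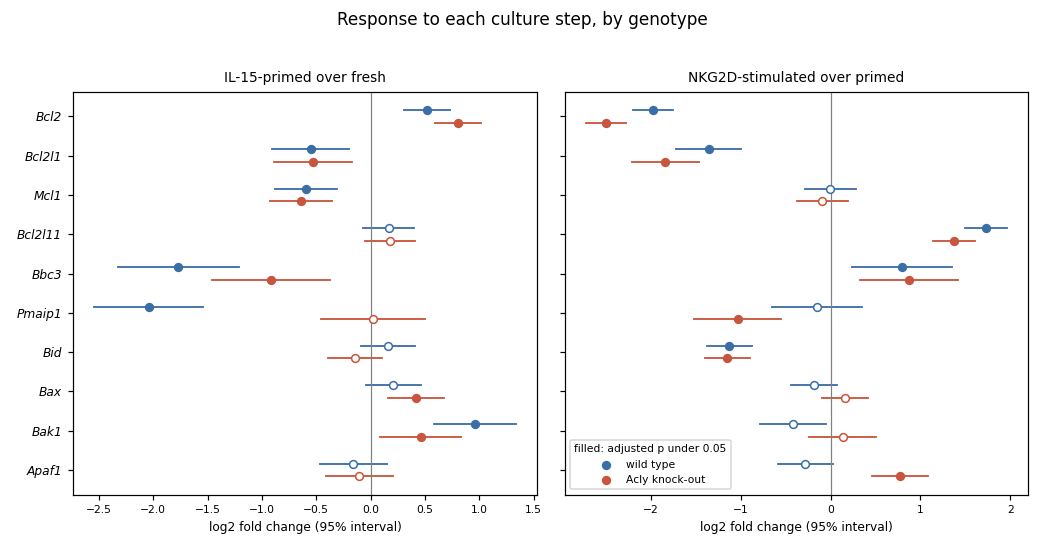
Log2 fold changes of the 10 genes during IL-15 priming (left) and after NKG2D (right). Points are edgeR estimates with 95% intervals on a log2 axis, blue for wild type and red for knock-out, and filled where the adjusted p was under 0.05. Pmaip1 shows the widest separation of the genotypes in priming (-2.04 in wild type, 0.02 in knock-out), and Bcl2 and Bcl2l11 lie on opposite sides of 0 after NKG2D.

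Bcl2, the founding prosurvival member, lies on chromosome 1 (106538178 to 106714274, minus strand, mm10). Fresh libraries held 257, 282 and 284 CPM in wild-type cells and 238, 286 and 292 CPM in knock-out cells. Primed libraries held 366, 401 and 413 CPM in wild-type and 452, 473 and 496 CPM in knock-out cells, and stimulated libraries held 93.1, 93.4 and 113 CPM and 79.7, 85.2 and 86.1 CPM. Every primed library was above every fresh library, and every stimulated library was below every fresh one.

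Priming raised Bcl2 by a log2 fold change of 0.52 (SE 0.0999, adjusted p = 0.000295) in wild-type and 0.80 (SE 0.1, adjusted p = 4.1e-06) in knock-out cells. NKG2D lowered Bcl2 by a log2 fold change of -1.98 (SE 0.103, adjusted p = 8.02e-09), 3.93-fold, in wild-type cells. In knock-out cells the change was -2.50 (SE 0.105, adjusted p = 1.13e-10), a 5.66-fold fall. The fall was steeper in the knock-out, with a difference of -0.52 between the log2 changes (SE 0.141, adjusted p = 0.0488). This difference was close to the threshold: leaving out 1 library ended the call in 11 of 12 cases, with adjusted p between 0.0463 and 0.134, and the call held in 5 of all 20 alternatives. At each single condition the genotypes did not differ by the test: the log2 difference was -0.01 in fresh, 0.27 in primed (adjusted p = 0.0772) and -0.26 in stimulated cells (adjusted p = 0.0875). The primed and the stimulated groups did not overlap, as for 4690 and 5167 of the 14864 tested genes. In primed cells DESeq2 (adjusted p = 0.0401), voom (0.0149) and a stricter filter on low counts (0.0246) called Bcl2 higher in the knock-out. In the authors' deposited table that comparison had a log2 fold change of 0.35 and an adjusted p of 0.00474. Exons of Bcl2 overlap those of D630008O14Rik on the other strand, and its deposited counts were not whole numbers in all 18 libraries. The sources used here do not say whether the counting used strand.

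Bcl2l1, which encodes BCL-XL, lies on chromosome 2 (152780668 to 152831728, minus strand). Its level stepped down at each stage. Fresh libraries held 208 to 245 CPM in wild-type and 179 to 229 CPM in knock-out cells, primed libraries 152 to 166 and 132 to 150 CPM, and stimulated libraries 48.9, 51.0 and 84.3 CPM and 35.2, 37.3 and 47.4 CPM. Priming lowered it by -0.55 (SE 0.169, adjusted p = 0.011) in wild-type and -0.53 (SE 0.170, adjusted p = 0.0154) in knock-out cells on the log2 scale. The knock-out call was lost without replicate 2 or 3 of the fresh knock-out (adjusted p = 0.0617 and 0.101) or replicate 1 of the primed knock-out (0.0884).

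NKG2D lowered Bcl2l1 by -1.36 (SE 0.173, adjusted p = 2.45e-05), 2.56-fold, in wild-type and by -1.84 (SE 0.176, adjusted p = 4.49e-07), 3.58-fold, in knock-out cells. The difference between these responses was -0.48 (95% interval -0.99 to 0.02, adjusted p = 0.3). After NKG2D, Bcl2l1 was lower in knock-out than in wild-type cells, with a log2 difference of -0.62 (SE 0.172, adjusted p = 0.0177), with no overlap of the groups. Replicate 1 of the stimulated wild type, at 84.3 CPM, stood above its 2 replicates, and without it the difference was -0.32 (adjusted p = 0.127). The call was also lost without replicate 2 or 3 of the stimulated knock-out (adjusted p = 0.0637 and 0.0763).

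Mcl1, which encodes a short-lived prosurvival protein, lies on chromosome 3 (95658788 to 95663176, plus strand). It passed the test on priming alone. Fresh libraries held 91.0 to 111 CPM in wild-type and 99.0 to 103 CPM in knock-out cells, and primed libraries held 61.6 to 72.4 and 53.4 to 70.4 CPM. The fall was -0.59 (SE 0.135, adjusted p = 0.00132) in wild-type and -0.64 (SE 0.135, adjusted p = 0.000825) in knock-out cells. NKG2D left it at 59.0 to 72.7 CPM in wild-type and 49.4 to 70.1 CPM in knock-out cells, with log2 changes of -0.004 (95% interval -0.29 to 0.28) and -0.09 (-0.38 to 0.19). No genotype difference passed the test, and in primed cells the interval of the difference ran from -0.33 to 0.24.

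Among the BH3-only genes, Bcl2l11, which encodes BIM, changed after NKG2D alone by the test. It lies on chromosome 2 (128126038 to 128162547, plus strand). Wild-type libraries held 85.7, 89.2 and 93.99 CPM fresh, 99.3, 101 and 102 CPM primed, and 273, 331 and 396 CPM after NKG2D. Knock-out libraries held 86.3, 91.6 and 96.9 CPM, then 99.2, 106 and 106 CPM, and then 244, 274 and 288 CPM. The stimulated libraries were all above 240 CPM and the others were all at or below 106 CPM.

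The NKG2D rise of Bcl2l11 was 1.73 (SE 0.113, adjusted p = 2.51e-08), 3.31-fold, in wild-type and 1.37 (SE 0.112, adjusted p = 6.87e-08), 2.59-fold, in knock-out cells. The difference between the rises was -0.35 (95% interval -0.68 to -0.03, adjusted p = 0.233). In stimulated cells, the level was lower in the knock-out by -0.31 (SE 0.109) without passing the test (adjusted p = 0.0583), and the groups overlapped. That comparison passed in 6 of 13 alternative analyses, among them DESeq2 (adjusted p = 0.0286) and voom (adjusted p = 0.000552), and its log2 difference ran from -0.43 to -0.17 over them. In the authors' deposited table the same comparison had a log2 fold change of -0.38 and an adjusted p of 0.00066.

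Bbc3, which encodes PUMA, is induced by p53 and by forkhead factors, and its libraries held 43 to 331 reads, the lowest count of any of the 10 genes among them. It lies on chromosome 7 (16308393 to 16318205, plus strand). Wild-type libraries held 7.59, 8.35 and 9.37 CPM fresh, 2.35, 2.41 and 2.64 CPM primed, and 4.25, 4.26 and 4.37 CPM after NKG2D. Knock-out libraries held 5.396, 5.80 and 10.3 CPM, then 2.88, 4.24 and 4.36 CPM, and then 5.91, 5.94 and 9.14 CPM. In wild-type cells the 3 conditions did not overlap.

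Priming lowered Bbc3 by -1.77 (SE 0.264, adjusted p = 2.28e-05), 3.41-fold, in wild-type and by -0.91 (SE 0.258, adjusted p = 0.0074) in knock-out cells. Without replicate 3 of the fresh knock-out, at 10.3 CPM, the knock-out fall was -0.51 (adjusted p = 0.106), and the difference between genotypes, 0.86 with all libraries (adjusted p = 0.144), became 1.24 (adjusted p = 0.0384). NKG2D raised it by 0.80 (SE 0.263, adjusted p = 0.0407) in wild-type and 0.88 (SE 0.258, adjusted p = 0.0136) in knock-out cells. The wild-type call was lost with each of the 6 libraries left out in turn, with adjusted p between 0.075 and 0.11 and a log2 change between 0.75 and 0.85. The knock-out call was lost without replicate 2 of the primed (adjusted p = 0.0649) or replicate 1 of the stimulated knock-out (0.0824). The log2 difference of Bbc3 between genotypes was 0.62 in primed (adjusted p = 0.121) and 0.71 in stimulated cells (adjusted p = 0.0634), without passing the test in either. The groups did not overlap, as for 4690 and 5167 of the 14864 tested genes.

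Pmaip1, which encodes NOXA, a p53 target whose product mainly binds MCL1, gave the widest genotype difference of the 10 genes. It lies on chromosome 18 (66458533 to 66465565, plus strand). Wild-type libraries held 19.3, 24.0 and 25.8 CPM fresh and 4.36, 6.02 and 6.33 CPM primed. Knock-out libraries held 14.9, 18.5 and 20.1 CPM fresh and 14.3, 18.4 and 21.7 CPM primed. The primed knock-out thus overlapped the fresh knock-out, and each of its libraries was above each primed wild-type library.

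Priming lowered Pmaip1 by -2.04 (SE 0.238, adjusted p = 1.45e-06), 4.12-fold, in wild-type cells, and changed it by 0.02 (95% interval -0.46 to 0.50, adjusted p = 0.945) in knock-out cells. The difference between these responses was 2.06 (SE 0.326, adjusted p = 0.000936), and it passed in all 20 alternative analyses (1.95 to 2.22). In primed cells the knock-out level was 3.23-fold that of the wild type, a log2 difference of 1.69 (SE 0.237, adjusted p = 0.000147), which passed in all 14 alternatives. In the authors' deposited table the same comparison had a log2 fold change of 1.66 and an adjusted p of 1.12e-06.

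After NKG2D, Pmaip1 was at 4.10, 4.50 and 6.40 CPM in wild-type and 6.21, 9.54 and 10.8 CPM in knock-out cells, so the groups overlapped by 1 library. It fell by -1.03 (SE 0.231, adjusted p = 0.00207) in knock-out cells and changed by -0.15 (adjusted p = 0.708) in wild-type cells, a difference of -0.88 that did not pass the test (adjusted p = 0.162). The stimulated knock-out remained higher by 0.81 (SE 0.236, adjusted p = 0.0234). This last call was lost without replicate 2 or 3 of the stimulated knock-out (adjusted p = 0.124 and 0.0976) or of the stimulated wild type (0.1 and 0.0825). In fresh cells the difference was -0.37 (95% interval -0.85 to 0.11, adjusted p = 0.518), and the authors' deposited table gave -0.41 with an adjusted p of 0.0423.

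Bid encodes a BH3-only protein that is cut by caspase-8 and by granzyme B, the protease of NK-cell granules. It lies on chromosome 6 (120891930 to 120916853, minus strand). Fresh libraries held 59.4 to 65.8 CPM in wild-type and 66.4 to 78.3 CPM in knock-out cells, and primed libraries 64.5 to 78.8 and 60.7 to 71.4 CPM. Stimulated libraries held 28.7, 32.7 and 35.0 CPM and 26.5, 28.8 and 32.7 CPM, below every other library. The NKG2D fall was -1.13 (SE 0.119, adjusted p = 3.48e-06) in wild-type and -1.15 (SE 0.119, adjusted p = 1.07e-06) in knock-out cells, and the difference between them was -0.03 (95% interval -0.38 to 0.33). Priming changed it by 0.16 (adjusted p = 0.266) and -0.14 (adjusted p = 0.328). Its exons overlap those of Bcl2l13 on the other strand, and counts were not whole in 13 libraries.

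Bax and Bak1 encode the proteins that form the pore. Bax lies on chromosome 7 (45461697 to 45466898, minus strand). Fresh libraries held 138 to 154 CPM in wild-type and 139 to 144 CPM in knock-out cells, primed libraries 139, 178 and 193 CPM and 178, 185 and 200.2 CPM, and stimulated libraries 131, 140 and 179 CPM and 200.2, 209 and 222 CPM. The genotypes overlapped in fresh and primed cells and separated after NKG2D.

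Bax was higher in the stimulated knock-out by 0.49 (SE 0.122, adjusted p = 0.00977), 1.40-fold, and this passed in all 13 alternatives (0.41 to 0.63). Priming raised it by 0.42 (SE 0.122, adjusted p = 0.009) in knock-out cells and changed it by 0.21 (adjusted p = 0.154) in wild-type cells, where the call was made without replicate 2 of the primed wild type (0.35, adjusted p = 0.025). The priming responses differed by 0.21 (95% interval -0.15 to 0.57). In primed cells the log2 difference between genotypes was 0.15 and did not pass (adjusted p = 0.446). The authors' deposited table gave 0.27 there with an adjusted p of 0.037. Neither genotype changed after NKG2D by the test, with -0.18 in wild-type (adjusted p = 0.335) and 0.16 in knock-out cells (adjusted p = 0.315), and the difference of 0.34 did not pass (adjusted p = 0.302). Its exons overlap those of Gm45808 on the same strand.

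Bak1 lies on chromosome 17 (27019810 to 27029009, minus strand). Fresh libraries held 6.70, 9.95 and 10.9 CPM in wild-type and 9.39, 11.1 and 11.2 CPM in knock-out cells. Primed libraries held 17.2, 18.04 and 18.3 CPM and 13.3, 14.4 and 15.9 CPM, and stimulated libraries 11.6, 13.2 and 15.3 CPM and 13.3, 16.5 and 18.1 CPM. Priming raised it by 0.96 (SE 0.178, adjusted p = 0.000215), 1.95-fold, in wild-type cells and by 0.46 (SE 0.177, adjusted p = 0.0403) in knock-out cells. The knock-out call was lost without replicate 2 or 3 of the fresh or of the primed knock-out (adjusted p between 0.0526 and 0.112), and the difference between genotypes was -0.50 (adjusted p = 0.213). In primed cells each knock-out library was below each wild-type library, at a log2 difference of -0.30 that did not pass the test (adjusted p = 0.267). NKG2D changed it by -0.42 (adjusted p = 0.109) in wild-type and 0.14 (adjusted p = 0.582) in knock-out cells. The difference of 0.55 between these did not pass (adjusted p = 0.248), though voom called it (0.0296). In stimulated cells the log2 difference between genotypes was 0.26 and did not pass (adjusted p = 0.35). Of 13 alternatives 1 called it, voom (0.44, adjusted p = 0.0153). The authors' deposited table gave 0.42 with an adjusted p of 0.0141. Its exons overlap those of Ggnbp1 on the other strand, and counts were not whole in 14 libraries.

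Apaf1, the scaffold of the apoptosome and a p53 target, lies on chromosome 10 (90989311 to 91082770, minus strand). Wild-type libraries held 22.2, 22.6 and 23.1 CPM fresh, 19.1, 20.7 and 20.9 CPM primed, and 15.6, 16.4 and 18.1 CPM after NKG2D. Knock-out libraries held 15.7, 16.5 and 20.1 CPM, then 15.1, 15.6 and 18.1 CPM, and then 21.9, 29.2 and 32.1 CPM. The knock-out was below the wild type in every library before stimulation and above it in every library after.

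NKG2D raised Apaf1 by 0.77 (SE 0.146, adjusted p = 0.000528), 1.71-fold, in knock-out cells and changed it by -0.28 (SE 0.145, adjusted p = 0.195) in wild-type cells. The difference between these responses was 1.05 (SE 0.206, adjusted p = 0.00935) and passed in all 20 alternatives (0.90 to 1.201). In stimulated cells the knock-out was higher by 0.73 (SE 0.145, adjusted p = 0.00211), 1.66-fold, and this passed in all 13 alternatives. The lower level of the knock-out before stimulation did not pass the test, at -0.37 in fresh (unadjusted p = 0.0194, edgeR adjusted p = 0.284) and -0.32 in primed cells (adjusted p = 0.147). In the authors' deposited table the fresh difference was -0.37 with an adjusted p of 0.0218. That table had 1940 of 13578 genes (14.3%) under 0.05 in fresh cells, and 2 of the 10 genes described here.

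**Figure D3:**
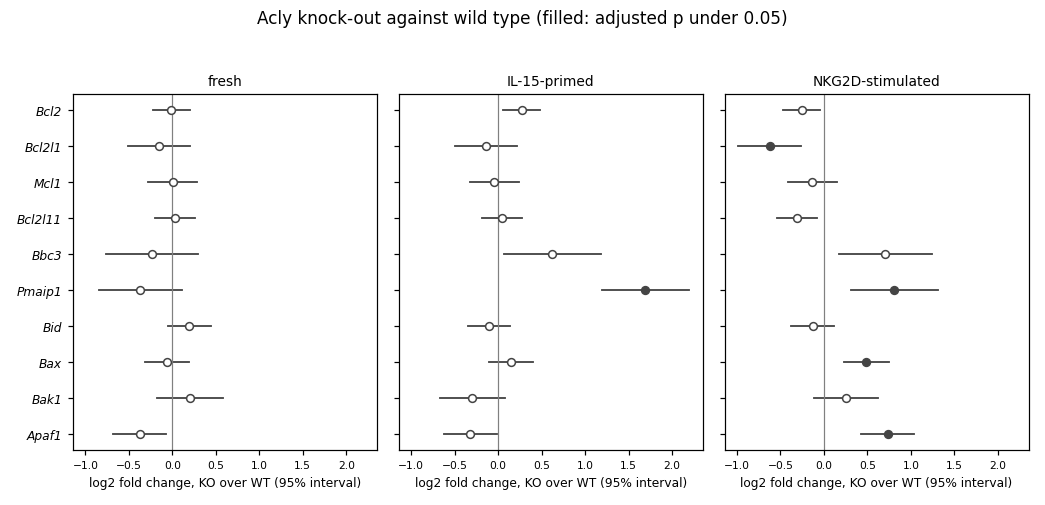
Knock-out against wild type for the 10 genes in fresh, primed and stimulated cells. Points are edgeR log2 fold changes with 95% intervals on a log2 axis, filled where the adjusted p was under 0.05. No point is filled in fresh cells, Pmaip1 (1.69) is filled in primed cells, and Bcl2l1 (-0.62), Pmaip1 (0.81), Bax (0.49) and Apaf1 (0.73) are filled after NKG2D.

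Per kilobase of annotated exon, Bax was the most abundant of the 10 genes in all 6 groups. In fresh wild-type cells the levels were 93.2 ± 5.02 CPM per kb for Bax, 50.3 ± 4.42 for Bcl2l1, 29.9 ± 1.65 for Bcl2, 29.3 ± 2.87 for Mcl1, 17.7 ± 0.907 for Bid and 11.2 ± 0.522 for Bcl2l11 (SD, n = 3). Pmaip1 followed at 8.43 ± 1.22 CPM per kb, Bbc3 at 3.97 ± 0.421, Bak1 at 3.82 ± 0.923 and Apaf1 at 2.50 ± 0.0516. Bcl2 and Mcl1, and Bbc3 and Bak1, were closer than their spread. After NKG2D the order in wild-type cells was Bax at 95.1 ± 16.03 CPM per kb, Bcl2l11 at 41.5 ± 7.64, Mcl1 at 19.4 ± 2.02, Bcl2l1 at 13.4 ± 4.33 and Bcl2 at 10.9 ± 1.26. Bcl2l11 thus moved from the sixth place to the second, above all 3 prosurvival genes, whose spreads in part overlapped one another. In knock-out cells after NKG2D the levels were 33.5 ± 2.78 CPM per kb for Bcl2l11, 9.14 ± 0.378 for Bcl2 and 8.71 ± 1.42 for Bcl2l1. These values rest on the total exon length of each gene in GENCODE M21, which counts exons of all transcripts.

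Ratios of 2 genes within 1 library do not depend on depth. They do depend on the genes' lengths, so they were compared between libraries and not read as molar ratios. The ratio of Bcl2 to Bcl2l11 counts was 3.00, 3.02 and 3.16 in fresh wild-type libraries and 3.68, 3.98 and 4.06 in primed ones. The ratio was 0.281, 0.286 and 0.342 after NKG2D. In knock-out libraries it was 2.45, 3.19 and 3.31, then 4.46, 4.56 and 4.68, and then 0.291, 0.299 and 0.349. The conditions did not overlap in either genotype, and the genotypes overlapped in fresh and stimulated cells but not in primed cells.

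The ratio of Bcl2l1 to Bcl2l11 fell at each step, with medians of 2.55, 1.53 and 0.187 in wild-type and 2.45, 1.39 and 0.153 in knock-out libraries. The ratio of Mcl1 to Pmaip1 was 10.2, 11.4 and 14.9 in primed wild-type and 2.46, 3.83 and 4.84 in primed knock-out libraries. In fresh cells the same ratio was 3.79 to 5.72 in wild-type and 5.12 to 6.65 in knock-out libraries, which overlapped. After NKG2D it was 9.22 to 16.4 and 6.47 to 7.96.

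**Figure D4:**
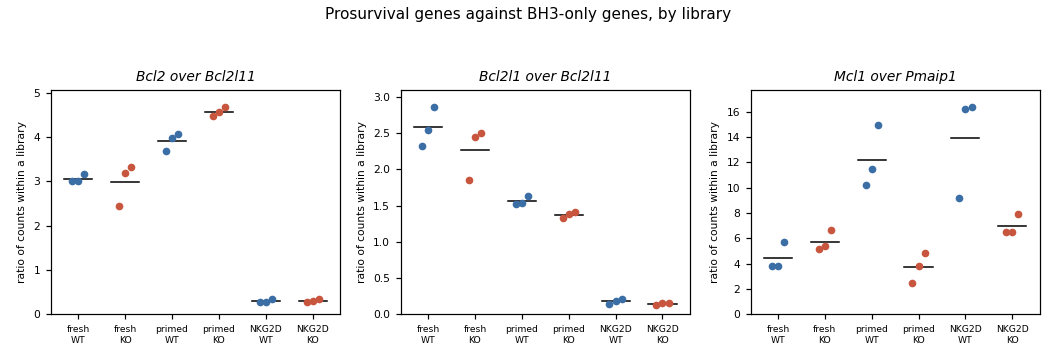
Ratios of counts within each library for 3 pairs of genes, on a linear axis from 0. Dots are libraries (blue wild type, red knock-out) and lines are means of 3 libraries. Bcl2 over Bcl2l11 is between 2.45 and 4.68 before stimulation and between 0.281 and 0.349 after it, and Mcl1 over Pmaip1 separates the genotypes in primed cells.

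Over the 18 libraries the 10 genes fell into patterns, given here as descriptions without a test because the libraries share conditions. Log2 CPM of Bcl2, Bcl2l1 and Bid went together (Pearson r of 0.844 for Bcl2 with Bcl2l1, 0.913 for Bcl2 with Bid and 0.906 for Bcl2l1 with Bid). Each ran against Bcl2l11, with r of -0.888 for Bcl2, -0.903 for Bcl2l1 and -0.95 for Bid. Bcl2, Bcl2l1 and Bid all fell after NKG2D, but they did not move together on priming. There Bcl2 rose, Bcl2l1 fell and Bid did not pass the test, in both genotypes. Mcl1 ran against Bak1 (r = -0.8) and Bax (r = -0.635), which went together (r = 0.577). Of all tested named genes, the closest to Bcl2 were Myc (r = 0.979) and Egr1 (r = 0.975), the closest to Bcl2l1 was Gem (r = 0.987), and the closest to Bcl2l11 was Cyp1a1 (r = 0.981). Bid was closest to Cd244a (r = 0.969), Mcl1 to Son (r = 0.96), Pmaip1 to Epc1 (r = 0.959) and Bbc3 to Bcl9l (r = 0.931). Bax was closest to Mdm2 (r = 0.902), Bak1 to Got2 (r = 0.888) and Apaf1 to Usp38 (r = 0.829).

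Among the other prosurvival genes, of which 5 of 7 were tested, the Bcl2a1 genes showed the clearest difference between genotypes. These encode A1, a prosurvival protein of leukocytes present in several near-identical copies in the mouse, so reads are shared between copies and the values of single copies are uncertain. Bcl2a1b was at 27.8 to 37.6 CPM in fresh wild-type libraries, 98.2 to 133 CPM in primed and 205 to 248.7 CPM in stimulated ones. In knock-out libraries it was at 24.1 to 31.0, 27.0 to 38.8 and 44.1 to 54.7 CPM. It was lower in the knock-out by -1.78 in primed (SE 0.161, adjusted p = 2.05e-06) and -2.22 in stimulated cells (SE 0.162, adjusted p = 3.55e-07), with no overlap.

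Bcl2a1d was likewise lower, by -1.57 (adjusted p = 0.00036) and -2.23 (adjusted p = 1.7e-05). The priming response was smaller in the knock-out by -1.59 for Bcl2a1b (adjusted p = 0.000428) and by -1.18 for Bcl2a1d (adjusted p = 0.0401). In all, 3 of the 5 tested genes of this list were lower in the knock-out in primed and in stimulated cells and none was higher, where 8.52% and 9.47% of all tested genes were lower. All 3 were Bcl2a1 genes, whose reads are shared between copies, so they are not separate results. The other tested genes of the list did not pass the test in either condition.

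Of the other BH3-only and related genes, 6 of 8 were tested. Bmf, which like BIM binds the prosurvival proteins, rose after NKG2D from 1.46 to 10.5 mean CPM in wild-type cells (log2 2.86, SE 0.405, adjusted p = 6.7e-05) and from 0.875 to 11.6 in knock-out cells (3.73, SE 0.433, adjusted p = 3.81e-06). Bnip3 and Bnip3l act in the removal of mitochondria. In primed cells both were lower in the knock-out, by -2.48 (adjusted p = 6.13e-06) and -0.996 (SE 0.117, adjusted p = 3.02e-05). Becn1 was higher there by 0.32 (SE 0.102, adjusted p = 0.0427). Of the 6 tested genes, 1 was thus higher and 2 lower in primed cells, against 7% and 8.52% of all tested genes. Bnip3l was at 191 to 265 CPM in primed wild-type and 102 to 119 CPM in primed knock-out libraries, and it rose after NKG2D in knock-out cells by 1.16 (adjusted p = 8.39e-07). The difference between genotypes in the NKG2D response passed the test for Bnip3l (1.17, adjusted p = 0.000933) and Bnip3 (2.33, adjusted p = 0.00111). For Bnip3, the wild type fell by -2.59 (170.5 to 28.4 mean CPM, adjusted p = 1.25e-06) and the knock-out changed by -0.26 without passing the test.

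**Figure D5:**
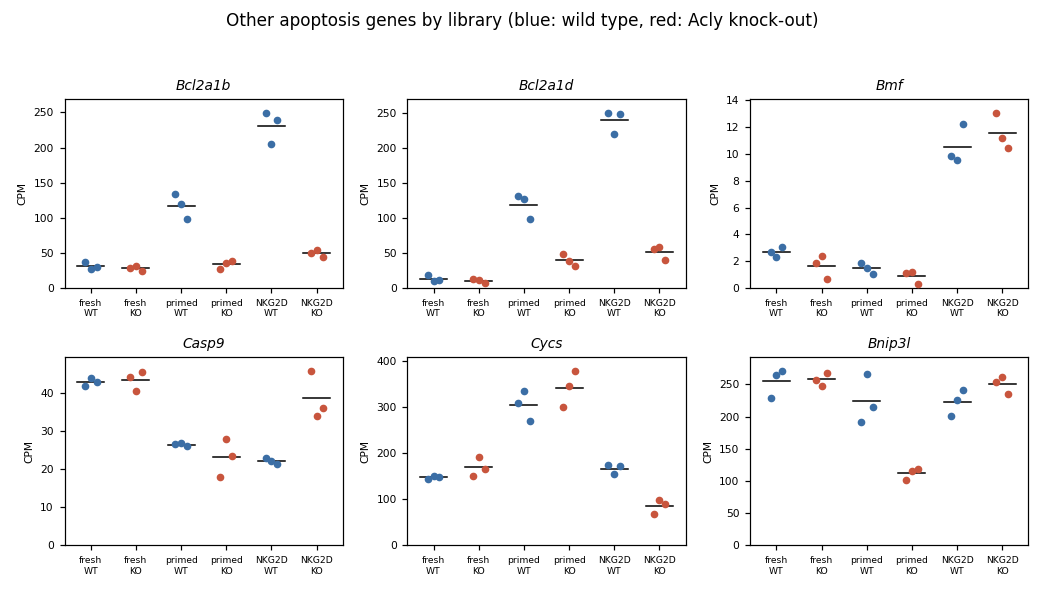
Expression of 6 further genes of the death pathway in each library. The vertical axis of each panel is CPM from 0, dots are libraries (blue wild type, red knock-out), and lines are means of 3 libraries. Bcl2a1b reaches 205 to 248.7 CPM in stimulated wild-type and 44.1 to 54.7 CPM in stimulated knock-out libraries, and Cycs is lower in the stimulated knock-out (69.2 to 99.3 CPM) than in the stimulated wild type (155 to 174 CPM).

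Downstream of the membrane, 15 of 16 genes of the apoptosome and caspases were tested. Cycs, which encodes cytochrome c, was lower in the stimulated knock-out by -0.96 (SE 0.130, adjusted p = 9.54e-05), and its NKG2D response differed by -1.13 (adjusted p = 0.00252). Casp9, the caspase that APAF1 activates, was higher there by 0.80 (SE 0.142, adjusted p = 0.000948), and its NKG2D response differed by 0.99 (adjusted p = 0.0114). In stimulated cells 4 of the 15 were higher and 1 lower in the knock-out, where 8.75% and 9.47% of all tested genes were. In primed cells 2 were higher and 3 lower, against 7% and 8.52% of all.

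Of the p53 target list, 18 of 20 genes were tested. The list includes the gene of p53 itself, which is counted among those that rose on priming in both genotypes. In the knock-out 5 were higher in primed cells (7% of all tested genes were) and 3 in stimulated cells (8.75% of all), and none was lower. The median log2 difference over the tested members was 0.33 in primed cells, against -0.02 over all tested genes, and 0.42 against 0.03 in stimulated cells. Trp53inp1 was higher in the knock-out by 0.78 in primed (adjusted p = 0.000782) and 1.02 in stimulated cells (adjusted p = 6.37e-05). Btg2 was higher in primed cells by 0.73 (adjusted p = 0.00653) and Gtse1 in stimulated cells by 0.88 (adjusted p = 0.000384). On priming, 7 members rose and 4 fell in wild-type cells, against 26.5% and 27.2% of all tested genes. In knock-out cells 12 rose and 4 fell, against 23% and 25.7% of all.

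Factors named as regulators of Bcl2l11 and Bbc3 were tested for all 15 genes of the list. Priming raised 6 and lowered 8 in wild-type cells and raised 5 and lowered 9 in knock-out cells. Of all tested genes it raised 26.5% and lowered 27.2% in wild-type and raised 23% and lowered 25.7% in knock-out cells. Klf6 fell by -2.11 (adjusted p = 3.6e-11) in wild-type and -2.28 (adjusted p = 1.38e-11) in knock-out cells, and the forkhead gene Foxo1 fell by -0.999 (adjusted p = 1.72e-06) and -1.16 (adjusted p = 3.57e-07). After NKG2D, 4 rose and 3 fell in wild-type cells, and 4 rose and 5 fell in knock-out cells, where 19.9% and 35.3% of all tested genes changed in either direction. Myc fell by -3.09 (adjusted p = 1e-07) and -4.14 (adjusted p = 2.27e-09), and Egr1 by -2.97 (adjusted p = 1.62e-07) and -4.40 (adjusted p = 1.77e-09). Ddit3, a transcription factor of the endoplasmic reticulum stress response, rose by 1.12 (adjusted p = 0.00216) and 1.73 (adjusted p = 2.27e-05). The fall of Egr1 was larger in the knock-out by -1.43 (adjusted p = 0.0188).

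Of 7 tested inhibitor-of-apoptosis genes, 1 was higher and 1 lower in the stimulated knock-out, Xiap by 0.45 (adjusted p = 0.0245) and Birc2 by -0.42 (adjusted p = 0.0225), where 8.75% of all tested genes were higher and 9.47% lower. In the primed knock-out 2 were lower and none higher, against 8.52% and 7% of all. These were Naip2 by -0.49 (adjusted p = 0.037) and Naip6 by -1.55 (adjusted p = 0.0223, at 1.13 against 3.39 mean CPM). Of 8 tested other effector and membrane-channel genes, 1 was lower and none higher in the primed knock-out, and 1 was higher and 1 lower in the stimulated knock-out. The shares of all tested genes were 8.52% lower and 7% higher in primed cells, and 8.75% higher and 9.47% lower in stimulated cells. Vdac2, a channel of the outer mitochondrial membrane, was lower by -0.55 in primed (adjusted p = 0.000508) and -0.35 in stimulated cells (adjusted p = 0.0109). Itpr2 was higher in stimulated cells by 0.54 (adjusted p = 0.0224). Of 9 tested genes that act on MCL1 turnover, 3 were lower in the primed and 1 in the stimulated knock-out, against 8.52% and 9.47% of all tested genes. The 1 in stimulated cells was Dusp6, which encodes a phosphatase of ERK, at 9.79 against 26.5 mean CPM (-1.44, adjusted p = 2.9e-05). In fresh cells no gene of the 8 lists differed between genotypes by the test.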

How the data were processed

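RNA was taken from sorted splenic NK cells with an RNeasy kit and made into libraries with a Takara-Clontech SMARTer kit, per the labels' protocols. The submitters' processing notes name DRAGEN, bcl2fastq, edgeR and the mm10 genome; settings and versions were not given in the sources used here. Expected counts were deposited by the authors, that is, reads per gene as estimated, without scaling; 30% of the values above 0 are not whole, and they were rounded. The plan had assumed whole counts. The reads carry no molecular identifiers. Tables of log2 fold changes, p-values and adjusted p-values were also deposited by the authors, from which values are quoted as theirs alone. Of their 13578 genes, 14.3% had an adjusted p under 0.05 between genotypes in fresh, 31.2% in primed and 45.5% in stimulated cells. Of the 10 genes described here, 2, 3 and 6 did.

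The tests were run here with edgeR 4.0.16 (R 4.3.3): TMM scaling, filterByExpr (14864 genes), 1 mean per group over 18 libraries and quasi-likelihood tests, with Benjamini-Hochberg adjustment over all tested genes and a threshold of 0.05. Residual degrees of freedom were 12 and prior ones 5.14, and edgeR's common biological variation (BCV) was 0.234. Standard errors are of the log2 fold change, and intervals are 95%. CPM values are scaled by TMM. Of 55774 entries, repeats of 168 identifiers held the same values and 1 was kept. Gene positions, exon lengths and overlaps came from GENCODE M21, and promoters from RefSeq GRCm38.p6. The scripts were tested on simulated data. Alternatives were DESeq2 1.42.0, limma 3.58.1 voom with quality weights, RLE scaling, other filters, only the libraries compared, a replicate block and leaving out libraries.

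The 10 genes, the 8 lists of other pathway genes and the markers were chosen with earlier results of these data known. Named were all 10 genes, at most 2 risen and 2 fallen genes of smallest p in each list and comparison, and for each of the 10 the tested genes of highest correlation. The values of 1 listed gene are not reported here.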

Additional observations from a re-analysis of the deposited data

Results flagged for a closer look

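The responses of 3 of the 10 genes differed between genotypes by the test of the difference itself. The priming responses of Pmaip1 differed by 2.06 on the log2 scale (SE 0.326, edgeR adjusted p = 0.000936), with -2.04 in the wild type and 0.02 in the knock-out. All 3 primed wild-type libraries were below all fresh wild-type libraries, whereas primed and fresh knock-out libraries overlapped. The NKG2D response of Apaf1 was larger in the knock-out by 1.05 (SE 0.206, edgeR adjusted p = 0.00935), with all 3 stimulated knock-out libraries above all primed ones. The NKG2D response of Bcl2 was more negative in the knock-out by -0.52 (SE 0.141, edgeR adjusted p = 0.0488), a value close to the threshold that passed in 5 of 20 alternative analyses. The cause of these differences was not tested.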

How the results depend on the processing

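No gene that passed the test changed direction in any alternative. Of the values recomputed for single genes, 47 lost a call and 21 gained one; 14 more, without a call in either analysis, moved by over 1 SE. The other 1269 kept their side of the threshold, though some called values moved by over 1 SE. The counts of the 10 genes below are given without the share of all tested genes called under each alternative. They therefore do not show whether an alternative called more or fewer genes in general. DESeq2 called 2 of the 10 genes between genotypes in primed cells and 7 after NKG2D, against 1 and 4. Voom with quality weights called 1 in fresh and 3 in primed cells, 2 for the difference in the priming response and 4 for that in the NKG2D response. Between genotypes in stimulated cells, voom called Bcl2l11 (adjusted p = 0.000552) and Bak1 (0.0153) besides the 4 genes of the main analysis. A mean log2 CPM of at least 3 gave 2 in primed cells. Fitting only the libraries compared gave 2 for genotype after NKG2D and 1 for the difference in the NKG2D response. No filter on low counts, and leaving out replicate 3 of the primed wild type with replicate 1 of the primed knock-out, also gave 1 for that difference. Leaving out 1 library gave 0 in fresh, 1 in primed and 2 to 5 in stimulated cells for genotype, 6 to 7 and 3 to 6 for priming of wild type and knock-out (3 without replicate 3 of the fresh knock-out), 4 and 6 to 7 for NKG2D, and 1 to 2 for both differences. Causes were not tested. A block for replicate number gave 1 in place of 2 for the difference in the NKG2D response and lost the calls of Bak1 in priming of the knock-out (adjusted p = 0.0575), Bbc3 after NKG2D in wild type (0.0532) and Bcl2 in the difference (0.0974). The labels do not say that the numbers pair libraries. Same-numbered libraries of a condition correlated at -0.332 to 0.288, with 1 of 9 pairs over 0.1. Those of a genotype across conditions correlated at -0.344 to 0.336 (median 0.133), with 9 of 18 pairs over 0.1, so not every pair did, and 7 of 18 libraries correlated best with their own number. Changing the scaling moved the median of all genes by at most 0.03. Depth limits Bbc3 most, with 43 reads in its lowest library.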
